A study of Homo sapiens with 3 samples.

Results

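The 38 HOX cluster genes described here were taken by name from the 32732 genes that the feature tables of all 3 libraries share. They lie in 4 clusters, with 10 genes in HOXA on chromosome 7, 10 in HOXB on chromosome 17, 9 in HOXC on chromosome 12 and 9 in HOXD on chromosome 2. HOX genes encode homeodomain transcription factors whose paralog number follows their order along each cluster. In vertebrate embryos low numbers mark the hindbrain and pharyngeal arches, middle numbers the neck and thorax, and high numbers the lumbar to tail levels, distal limb and genital tissue, while forebrain and midbrain tissue carries none. Adult fibroblasts keep a HOX pattern of the body site they came from, and neurons of the hindbrain and spinal cord keep one of their level.

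RNA was counted in single cells of 3 groups, each with its own single library. FiN cells of days 3 and 5 are labelled as neurons induced from BJ, and BJ cells themselves, an established line of human foreskin fibroblasts, stand for day 0. Every group carries the genotype label WT and the treatment label reprogramming. In the protocol given for all of them, BJ cells on poly-D-lysine met an induction medium and from day 2 a maturation medium, both with 10 µM forskolin, an activator of adenylyl cyclase, which was taken out on day 5. Whether day 0 cells met forskolin was not stated. Nuclei and an ATAC kit (for open chromatin) are labelled as the preparation of days 0 and 3, while for day 5 the labels name dissociated cells with both a 3′ expression kit and that ATAC kit, so preparation and day cannot be told apart.

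After filtering, 16773, 11454 and 9219 cells remained at days 0, 3 and 5, with medians of 14039, 1324 and 4374 UMIs (unique molecular identifiers, counted molecules) per cell. Levels are CPM, a gene's summed UMIs scaled to the library total over the shared genes, and parentheses hold exact 95% intervals, Poisson for levels and conditional binomial for ratios. Without replicate libraries no test was possible: the intervals show counting error alone, and a difference between days is a difference between single libraries. A total of 3 UMIs in a library, the limit behind a count of 0, equals 0.0122, 0.160 and 0.0589 CPM at days 0, 3 and 5. Fibroblast markers summed to 6560, 8755 and 468 CPM and neuron markers to 82.0, 51.8 and 4210 CPM in that order. At day 3, 5 of 14 neuron markers reached 1 CPM and DCX, STMN2, ELAVL4, NEFL and NEFM had 0 UMIs, so that library went against its label, whereas 14 of 14 reached 1 CPM at day 5 and 2 fibroblast markers, COL6A3 and PDGFRA, did not. Mitochondrial genes took 6.45%, 0.745% and 5.01% of UMIs, and MALAT1, a nuclear RNA, 3.14%, 21.6% and 7.35%. Between 27 and 63 cell barcodes were shared by any 2 of the libraries.

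RefSeq promoter windows (GRCh38.p14, 250 bases before to 50 after a transcript start) were found for 20 of the 38 genes, 27 windows in all. The 5 printed here, each 5′ to 3′ on the gene's strand, are windows of genes on either side of the border that separated the day 5 library from the others: HOXA2, kept at day 5; HOXA4 and HOXA7, near or at 0 UMIs there; and HOXD3 and HOXD4, counted only there. Capitals mark each CpG, the dinucleotide where DNA methylation falls.
HOXA2, chr7:27102634-27102933, minus strand: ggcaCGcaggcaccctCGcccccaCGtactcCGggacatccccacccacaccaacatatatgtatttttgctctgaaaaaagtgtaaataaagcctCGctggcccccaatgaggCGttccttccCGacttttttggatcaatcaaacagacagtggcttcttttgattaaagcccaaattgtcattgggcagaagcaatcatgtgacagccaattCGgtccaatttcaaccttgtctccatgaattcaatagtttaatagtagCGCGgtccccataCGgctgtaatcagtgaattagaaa
HOXA4, chr7:27130708-27131007, minus strand: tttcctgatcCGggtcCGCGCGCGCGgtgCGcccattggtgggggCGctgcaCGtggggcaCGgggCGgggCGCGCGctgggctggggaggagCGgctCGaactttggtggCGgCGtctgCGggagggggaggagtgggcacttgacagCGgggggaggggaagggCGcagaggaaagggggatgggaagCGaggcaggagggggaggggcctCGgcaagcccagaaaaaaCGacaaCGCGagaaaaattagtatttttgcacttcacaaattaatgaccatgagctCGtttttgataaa
HOXA7, chr7:27156626-27156925, minus strand: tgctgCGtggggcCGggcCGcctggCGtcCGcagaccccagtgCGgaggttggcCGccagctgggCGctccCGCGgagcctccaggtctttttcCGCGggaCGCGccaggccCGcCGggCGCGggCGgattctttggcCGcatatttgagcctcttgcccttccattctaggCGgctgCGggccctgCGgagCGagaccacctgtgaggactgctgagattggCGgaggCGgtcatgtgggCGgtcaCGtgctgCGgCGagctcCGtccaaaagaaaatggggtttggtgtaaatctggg
HOXD3, chr2:176157057-176157356, plus strand: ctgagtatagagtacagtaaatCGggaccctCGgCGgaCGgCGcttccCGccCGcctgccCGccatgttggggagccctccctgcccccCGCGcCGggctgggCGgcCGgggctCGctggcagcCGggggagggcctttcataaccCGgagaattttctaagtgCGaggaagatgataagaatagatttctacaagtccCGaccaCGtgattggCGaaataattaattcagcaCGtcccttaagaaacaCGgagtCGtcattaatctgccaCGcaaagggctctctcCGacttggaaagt
HOXD4, chr2:176151300-176151599, plus strand: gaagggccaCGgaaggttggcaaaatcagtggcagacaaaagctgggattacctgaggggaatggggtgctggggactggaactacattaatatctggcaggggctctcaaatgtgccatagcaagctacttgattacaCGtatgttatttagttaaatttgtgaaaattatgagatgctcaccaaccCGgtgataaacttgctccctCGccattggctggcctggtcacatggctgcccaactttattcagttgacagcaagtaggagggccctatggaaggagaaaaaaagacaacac
The windows of HOXA2, HOXA4, HOXA7, HOXD3 and HOXD4 held 11, 27, 31, 25 and 4 CpGs. Over the 27 HOX windows the median was 22 CpGs, against 14 over 35116 promoters of 27305 genes, at a median GC content of 58.0% against 58.7%. The retinoid half-site AGGTCA, searched on both strands, was in 0 of 27 HOX windows and in 13.8% of all promoters, the TATA motif TATAAA was in 5 of 27, or 18.5%, against 11.5%, and the HOX-PBX motif TGATNNAT in 3 of 27, or 11.1%, against 7.40%. HOXC4 and HOXC5 have the same window, HOXA3 has several, and HOXB1 is the only HOXB gene among them, so these values do not stand for all 38 genes. These are letter matches in short windows and a description only.

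Nearly all HOX UMIs of the day 5 library came from paralog groups 2 to 4. Genes of groups 5 to 13 made up 60.8% of HOX UMIs at day 0 (95% exact binomial interval 60.5 to 61.1%), 41.9% at day 3 (40.8 to 43.0%) and 0.170% at day 5 (0.0953 to 0.281%). At day 5 that share rested on 15 UMIs in 14 of 9219 cells, beside 8798 UMIs of groups 1 to 4. Summed over the 38 genes, HOX UMIs came to 432, 422 and 173 CPM at days 0, 3 and 5. Cluster B held most of them in each library, with 91.8%, 60.9% and 73.0% in the same order, while cluster A held 8.10%, 38.2% and 16.7%. Cluster D had 5 and 0 UMIs at days 0 and 3 but 888 at day 5, or 10.1% of HOX UMIs, and cluster C stayed under 1% in all of them.

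**Figure D1:**
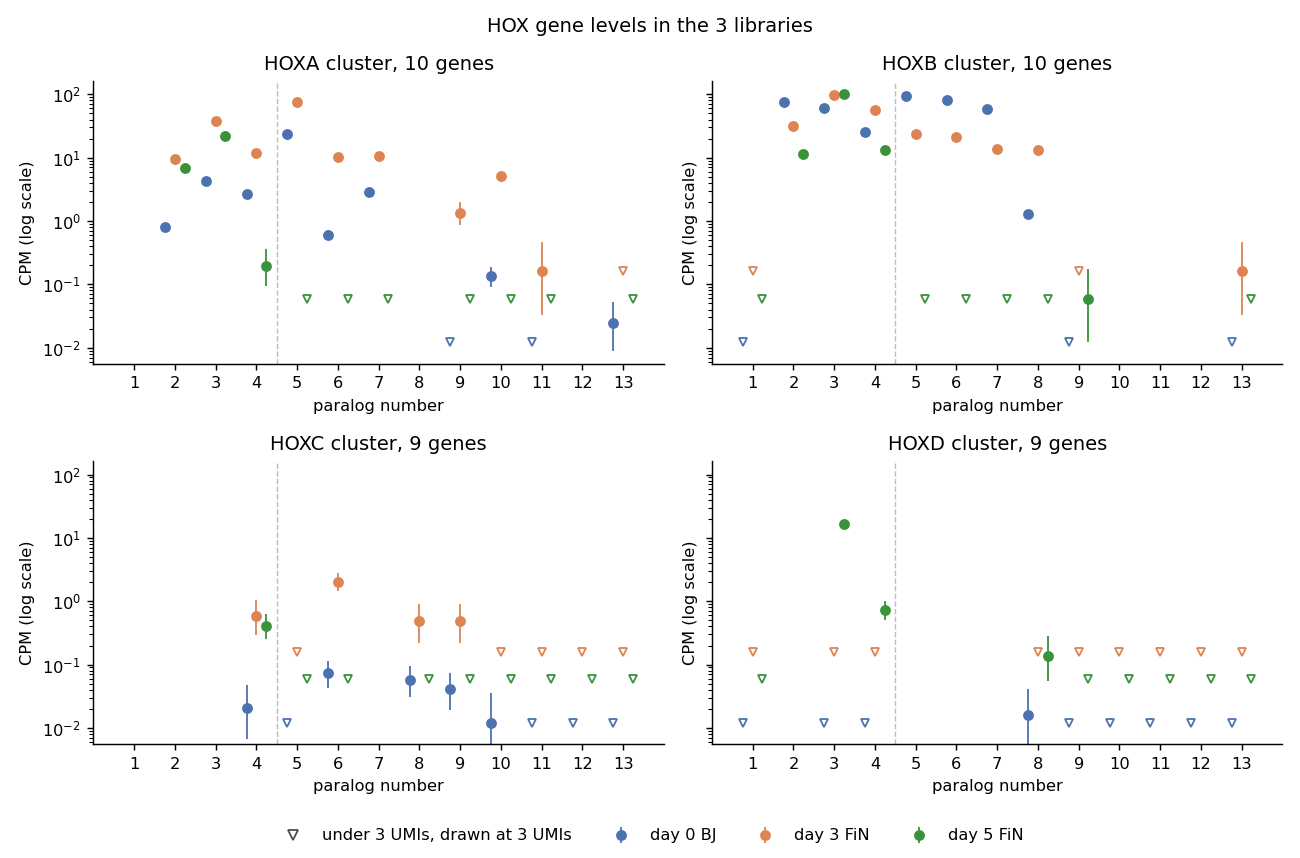
CPM on a log scale against paralog number for the 38 HOX genes in clusters A to D, coloured by library (1 library per day), with bars for exact Poisson 95% intervals and open triangles for genes under 3 UMIs. Right of the dashed line after paralog number 4, every day 5 point lies below 0.2 CPM, whereas HOXA5 and HOXB5 to HOXB7 lie above 10 CPM at days 0 and 3.

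**Figure D2:**
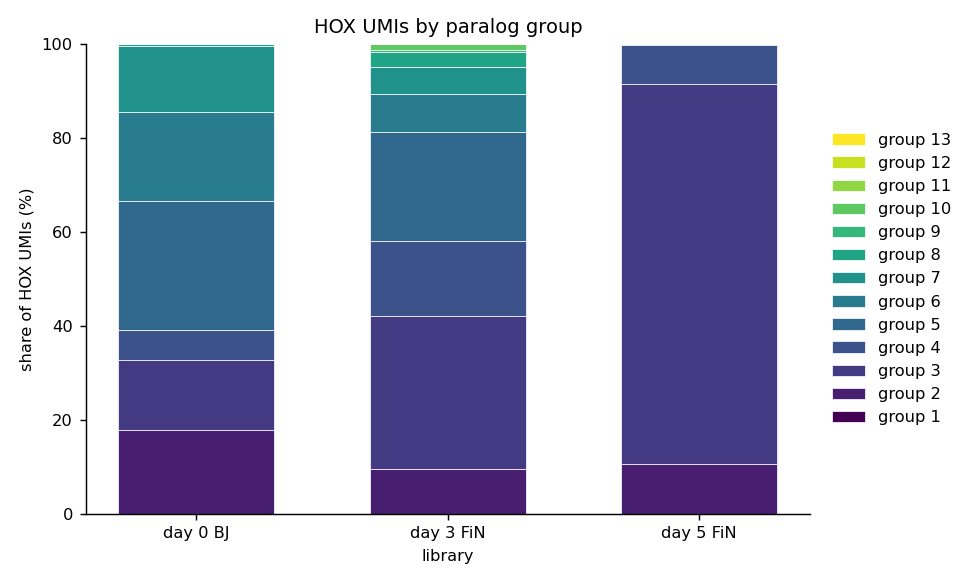
Share of HOX UMIs (%) by paralog group in each library, stacked from group 1 at the bottom. Groups 5 to 13 take 60.8%, 41.9% and 0.170% at days 0, 3 and 5, and group 3 alone takes 80.9% at day 5.

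Of group 1, HOXB1, a gene of a single hindbrain segment, had 2, 0 and 2 UMIs at days 0, 3 and 5, and HOXD1 had 0, 0 and 1. Group 2 genes pattern the hindbrain segments and, for HOXA2, the pharyngeal arches. HOXA2 (ENSG00000105996, chr7:27100354-27102811, GRCh38, minus strand) had 0.799 CPM (0.692 to 0.919) at day 0, 9.41 CPM (8.07 to 10.9) at day 3 and 6.77 CPM (6.08 to 7.53) at day 5. It was 8.48-fold higher at day 5 than at day 0 (7.09 to 10.1), or 3.86-fold with TMM scaling, which centres the library ratios on a trimmed mean over genes. Day 3 was the highest library. Without its cell cluster 3, described further on, HOXA2 had 5.16 CPM (4.09 to 6.42) at day 3, an interval that overlaps the day 5 interval. HOXB2 (chr17:48540894-48544989) ran the other way, with 76.0 CPM (75.0 to 77.1), 31.1 CPM (28.6 to 33.7) and 11.5 CPM (10.6 to 12.5) at days 0, 3 and 5. It was 6.61-fold lower at day 5 than at day 0, and the intervals of the 3 libraries do not overlap.

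Group 3 genes act in the caudal hindbrain, and HOXA3 also in thymus and parathyroid. HOXB3 (chr17:48548870-48604912) had 60.0 CPM (59.0 to 60.9), 98.8 CPM (94.3 to 103) and 102 CPM (98.8 to 104) at days 0, 3 and 5, and no pair of libraries differed 2-fold. With TMM scaling HOXB3 was 1.30-fold lower at day 5 than at day 0 and 1.39-fold lower at day 3 than at day 0, so its direction against day 0 turned with the scaling. HOXA3 (chr7:27106184-27152581) had 4.33 CPM (4.08 to 4.60), 38.2 CPM (35.4 to 41.1) and 21.9 CPM (20.7 to 23.3), so that day 5 was 5.06-fold above day 0 (4.65 to 5.51), or 2.30-fold with TMM scaling, and 1.74-fold below day 3. HOXD3 (ENSG00000128652, chr2:176136612-176173102, plus strand) had 842 UMIs and 16.5 CPM (15.4 to 17.7) at day 5, and 0 UMIs at days 3 and 0. Against a level of 3 UMIs per library, day 5 was at least 103-fold higher than day 3 and at least 1358-fold higher than day 0. Per kilobase of exon, HOXB3 had 13.6 CPM at day 5, HOXA3 5.09 and HOXD3 4.66, so HOXB3 led this group on a length scale too.

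At group 4, where the hindbrain meets the neck, the clusters parted. HOXB4 (chr17:48575513-48580111), which also serves blood stem cells, had 25.3 CPM (24.7 to 26.0), 55.6 CPM (52.3 to 59.1) and 13.1 CPM (12.1 to 14.1) at days 0, 3 and 5. Day 5 was 4.25-fold below day 3 and, short of the 2-fold limit, 1.93-fold below day 0, or 4.25-fold below day 0 with TMM scaling. HOXA4 (chr7:27128507-27130799) had 10 UMIs and 0.196 CPM (0.0942 to 0.361) at day 5, against 11.7 CPM (10.2 to 13.3) at day 3 and 2.70 CPM (2.50 to 2.92) at day 0. HOXD4 (chr2:176151222-176153226) had 37 UMIs and 0.727 CPM (0.512 to 1.00) at day 5 and 0 UMIs before, and HOXC4 stayed under 1 CPM, with 5, 11 and 21 UMIs at days 0, 3 and 5.

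Group 5 to 8 genes, known from the neck and thorax and from fibroblasts of the trunk, held the sharpest contrasts. HOXB5 (chr17:48591257-48593961) had 94.5 CPM (93.3 to 95.7) at day 0, 23.3 CPM (21.2 to 25.6) at day 3 and 1 UMI at day 5, which was 0.000208 of its day 0 level (5.3e-06 to 0.00116). HOXB6 and HOXB7 had 81.4 and 58.1 CPM at day 0, 21.4 and 13.5 CPM at day 3, and 0 UMIs at day 5, at least 1382-fold and 986-fold lower than at day 0. HOXA5 (chr7:27141052-27143668), a lung and shoulder level gene in mouse, had 23.5 CPM (22.9 to 24.2), 74.5 CPM (70.6 to 78.5) and 0.0393 CPM from 2 UMIs at days 0, 3 and 5. It thus stood highest at day 3, and day 5 was 0.000528 of day 3 (6.4e-05 to 0.00191).

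HOXA6, HOXA7 and HOXB8 were highest at day 3 and near or at 0 at day 5. HOXA6 had 0.609, 10.4 and 0 CPM, HOXA7 2.84, 10.6 and 0 CPM, and HOXB8 1.31, 12.99 and 0.0196 CPM at days 0, 3 and 5. All 3 were higher at day 3 than at day 0, by 17.1-fold (13.8 to 21.3), 3.74-fold (3.18 to 4.39) and 9.91-fold (8.36 to 11.7), and HOXA6 and HOXA7 were at least 177-fold and 181-fold lower at day 5 than at day 3. HOXC6, linked to forelimb-level motor neurons in mouse, had 18, 38 and 0 UMIs at days 0, 3 and 5, which at day 3 is 2.03 CPM (1.44 to 2.79). HOXC8 had 14, 9 and 0 UMIs at days 0, 3 and 5, HOXD8 4, 0 and 7, and HOXC5 0 in each.

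Groups 9 to 13, the lumbar, tail, distal limb and genital part of the code, were nearly silent. They gave 0.0564%, 1.74% and 0.0454% of HOX UMIs at days 0, 3 and 5. HOXA10, known from the uterus and the lumbar spine, had 5.13 CPM (4.16 to 6.27) at day 3, 38.3-fold its day 0 level (25.6 to 58.8), and HOXA9 had 1.34 CPM (0.865 to 1.97) at day 3. Both had 0 UMIs at day 5, at least 87.1-fold and 22.7-fold below day 3, and HOXA9 had 0 UMIs at day 0 too. The other 14 genes of these groups had at most 10 UMIs in any library, and HOXC12, HOXD11, HOXD12 and HOXD13 had 0 in each. Group 13 as a whole had 7, 3 and 0 UMIs at days 0, 3 and 5.

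A gene was called higher or lower when the CPM ratio was at least 2, the larger level at least 1 CPM and the intervals separate, with libraries under 3 UMIs set at 3 UMIs. For day 5 against day 0, 13 of 38 members reached the limit of 1 CPM. Of these HOXA2, HOXA3 and HOXD3 were higher at day 5, while 55.5% of all 17879 genes that reached it were called higher. Lower were HOXA4, HOXA5, HOXA7, HOXB2, HOXB5, HOXB6, HOXB7 and HOXB8, 8 of 13, while 22.2% of all genes were called lower. The median log2 ratio was -3.78 over the 13 and 1.47 over all genes at the limit. With TMM scaling, 3 members were higher and 10 lower of 14 at the limit, HOXA6 and HOXB4 being added, while all genes had 41.3% higher and 36.2% lower. That scaling moves the median of genes with 10 UMIs in each library from 0.71 to -0.42 (log2) in this contrast.

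Day 5 against day 3 gave 17 members at the limit, with HOXD3 higher, at a background of 40.0% of 18882 genes, and 13 lower, at a background of 29.7%. The lower genes included every tested member of groups 5 to 13, 10 of 10, and HOXA4, HOXB2 and HOXB4. The median log2 ratio was -5.89, against 0.29 over all genes at the limit. Intron length moved with both day 5 contrasts: of genes with under 20 kb of intron, 22.8% were higher and 49.7% lower than at day 3, and 39.0% higher and 37.0% lower than at day 0. All HOX genes here except HOXA3, HOXB3, HOXB7, HOXC4, HOXC6 and HOXD3 are of that class, and the part of intron length in their result was not tested.

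Day 3 against day 0 gave the opposite balance, with 11 of 16 members higher (background 46.3% of 15335 genes) and 4 lower (16.2%); among genes with under 20 kb of intron these shares were 47.8% and 19.4%. Higher were HOXA2 to HOXA7, HOXA9, HOXA10, HOXB4, HOXB8 and HOXC6, and lower were HOXB2, HOXB5, HOXB6 and HOXB7. Every tested HOXA gene was thus higher at day 3, although HOXA4, HOXA5, HOXA7 and HOXA9 were no longer called with TMM scaling. The median over all genes with 10 UMIs in each library was itself shifted by 0.81 (log2) in this contrast, and with TMM scaling, which moves that median to -0.39, 6 members of 15 were called higher and 4 lower, against 24.3% and 38.6% of all genes, and the log2 ratio of HOXB4 turned to -0.062.

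In single cells the same genes stood apart. Among cells of at least 10000 UMIs, 83.9% of 875 day 5 cells (exact binomial 81.3 to 86.3%) and 99.5% of 8955 day 0 cells (99.4 to 99.7%) held a HOX UMI. For groups 5 to 13 the shares were 0.343% at day 5 (0.0708 to 0.999%) and 98.2% at day 0 (98.0 to 98.5%). A median cell of at least 10000 UMIs held 1 HOX gene at day 5, with at most 4, and 5 at day 0, with at most 11. Depth above that limit was not made equal between the libraries. HOXB3 was seen in 69.5% of these cells at day 5 and 69.8% at day 0, whereas HOXB5 was seen in 0 of 875 day 5 cells of that depth, which by the limit of 3 counts allows up to 0.343%, and in 81.2% of day 0 cells. At an equal depth of 1000 UMIs, HOXB3 was seen in 9.59% of day 5 cells (8.995 to 10.2%) and 4.07% of day 0 cells (3.76 to 4.41%). At that depth, 29.2%, 33.2% and 16.2% of cells at days 0, 3 and 5 held a HOX UMI, and 20.3%, 15.7% and 0.0217% one of groups 5 to 13. The median cell then held 0 HOX genes in each library, with means of 0.347, 0.399 and 0.173 at days 0, 3 and 5. In day 5 barcodes of 500 to 1000 UMIs, below the cell call, where free RNA, debris and small cells were not separated, HOXB3 stood at 74.4 CPM and HOXD3 at 22.9 CPM, against 102 and 16.5 CPM in the day 5 cells, so cells that express these genes and cells that took up free RNA cannot be told apart by a UMI alone. As the levels are sums over cells, fewer cells with a gene and less RNA per cell cannot be told apart either.

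Clusters were made in each library alone, with the HOX genes and the HOX cluster noncoding RNAs left out. All 11 day 5 clusters carried HOXA2, HOXA3, HOXB2, HOXB3, HOXB4 and HOXD3 at 1 CPM or more, and groups 5 to 13 gave at most 0.885% of HOX UMIs in any of them. Of the 11 clusters, 5 were neuron-like, with 5 to 9 of 14 neuron markers at least 2-fold above the other cells. HOXB3 was 139 CPM (134 to 145) in the 5 neuron-like clusters and 80.8 CPM (77.7 to 83.9) in the other 6, with its highest level, 243 CPM, in cluster 9 (led by RELN and NXPH1) and its lowest, 73.4 CPM, in cluster 7 (led by TTC6 and ARHGAP24). The clusters overlapped: neuron-like cluster 4 had 87.7 CPM, below the 88.9 to 113 CPM of clusters 1, 2, 10 and 11. HOXB2 was 8.0 CPM (6.75 to 9.42) in the neuron-like clusters and 13.4 CPM (12.2 to 14.7) in the others, again with overlap, since neuron-like cluster 6 had 14.3 CPM. HOXD3 was lowest in cluster 7, at 6.97 CPM, and lay between 15.8 and 35.2 CPM elsewhere. Cluster 2, which held 4 fibroblast markers above the other cells and COL14A1 among its leading genes, had 754 UMIs of groups 1 to 4 and 4 of groups 5 to 13. HOXA2, HOXA3, HOXB2, HOXB4 and HOXD3 stood higher in day 5 barcodes of 500 to 1000 UMIs than in the day 5 cells. HOXA3 had 27.2 against 21.9 CPM and HOXB4 20.7 against 13.1 CPM, while HOXB3 was lower there, at 74.4 against 102 CPM. Presence in all clusters thus does not by itself show expression by each of them. With the low-barcode profile subtracted at 10% of UMIs, HOXB2 came to 0 CPM in its lowest cluster and HOXB3 to at least 73.3 CPM in each. HOXA2, HOXA3, HOXB4 and HOXD3 stayed above 1 CPM in each.

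**Figure D3:**
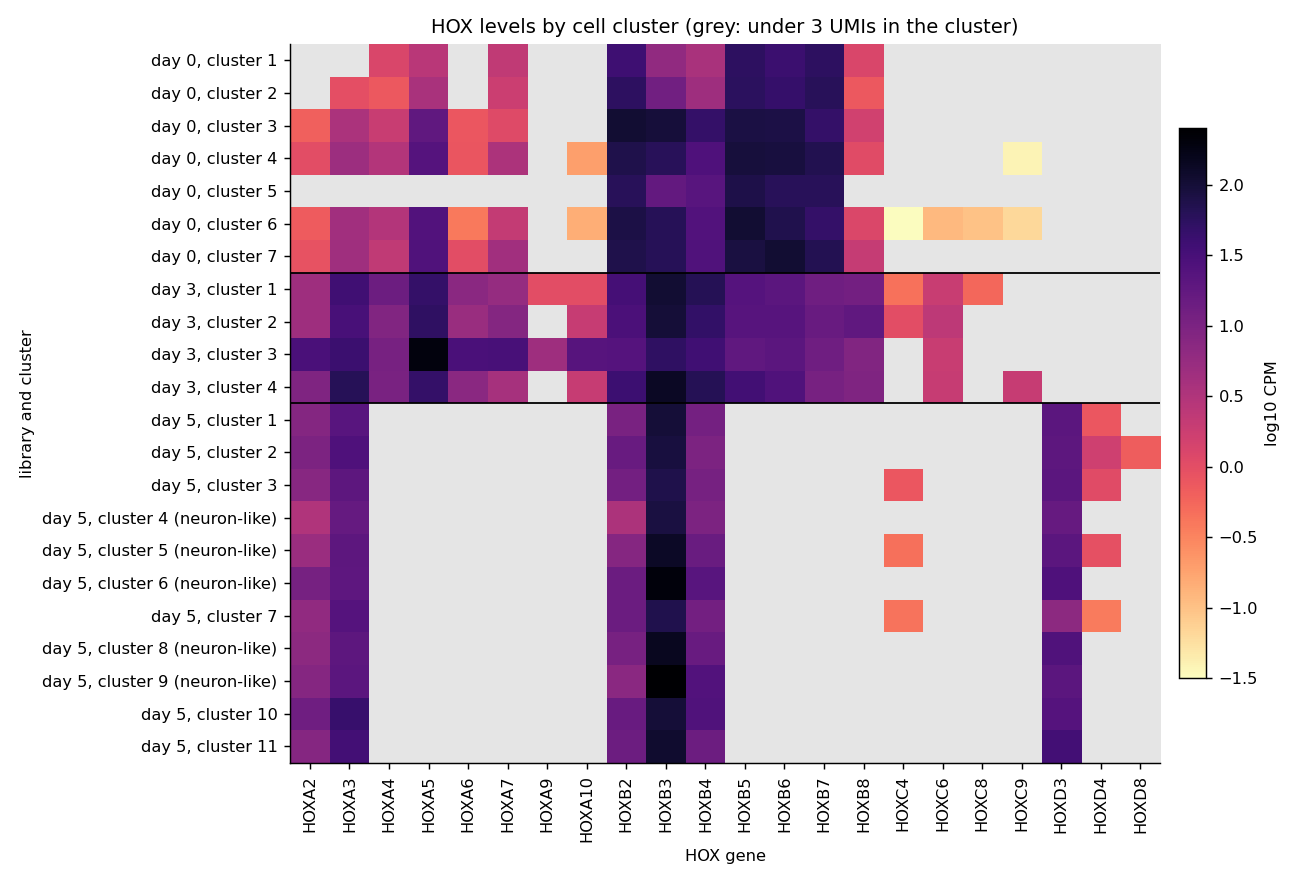
Heatmap of log10 CPM for HOX genes with at least 10 UMIs in all (columns) in each cell cluster of each library (lines, day 0 at the top), grey where a cluster held under 3 UMIs. The columns HOXA5 to HOXA10 and HOXB5 to HOXB8 are grey in all 11 day 5 clusters, and HOXD3 is coloured only in those.

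Within day 3, cluster 3 had its own HOXA profile. This cluster, led by RORB and HES1, held 2532 of the cells at a median of 991.5 UMIs. HOXA10 was 23.1 CPM (18.1 to 28.9) there and 1.42 CPM (0.889 to 2.15) in the other day 3 cells, HOXA5 197 CPM (182 to 213) and 49.1 CPM (45.7 to 52.7), and HOXA2 29.9 CPM (24.2 to 36.5) and 5.16 CPM (4.09 to 6.42). HOXA6, HOXA7 and HOXA9 were 4.59-fold, 4.98-fold and 7.24-fold higher in cluster 3. HOXB2, HOXB3 and HOXB4, in contrast, were 0.714, 0.489 and 0.617 of the other cells, and HOXA3, HOXA4, HOXB6, HOXB7 and HOXC6 differed by less than their intervals. EMX2 and TBX15, which unlike the HOX genes were not left out of the clustering, stood at 31.8 and 49.5 CPM in cluster 3 and at 1.68 and 1.48 CPM elsewhere. Without cluster 3, HOXA9 no longer reached 1 CPM at day 3, and the other calls between day 3 and the other libraries remained.

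**Figure D4:**
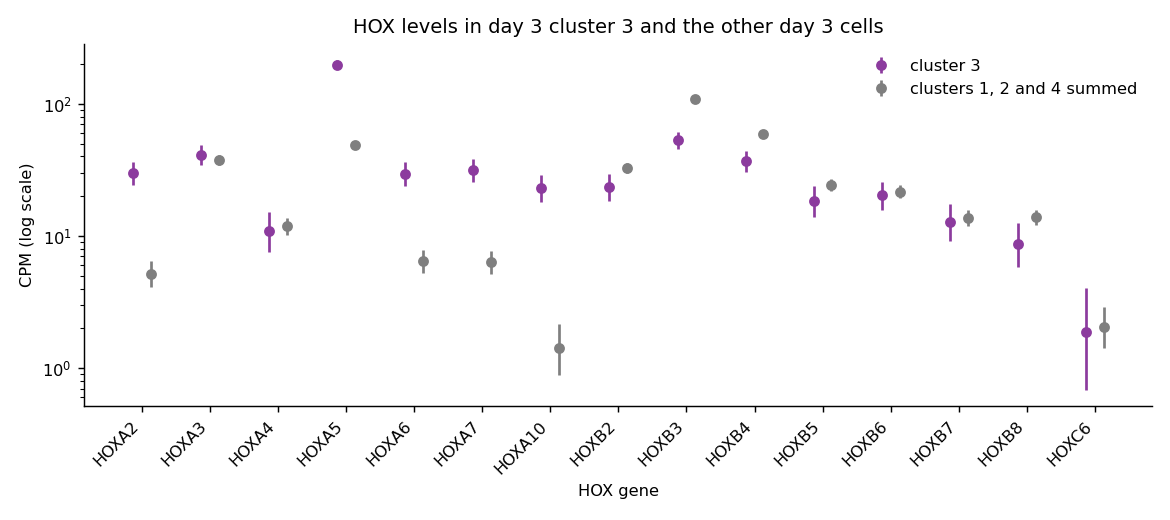
CPM on a log scale, with exact Poisson 95% intervals, in day 3 cluster 3 (purple) and in the other day 3 clusters summed (grey) for HOX genes with at least 30 UMIs. HOXA2, HOXA5, HOXA6, HOXA7 and HOXA10 are higher in cluster 3 and HOXB3 and HOXB4 lower, while HOXA3, HOXA4 and HOXB6 overlap.

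Day 0 clusters differed in HOXB3, HOXB4, HOXA3 and HOXA5. Clusters 1 and 2, shallow at medians of 2516 and 1001 UMIs, had 6.26 and 12.3 CPM of HOXB3, against 60.5 to 96.3 CPM in the 4 clusters of over 500 cells that remain, and 3.66 and 4.62 CPM of HOXB4, against 24.8 to 47.6 CPM. HOXA5 had 2.60 and 3.66 CPM in clusters 1 and 2, against 18.6 to 25.7 CPM, and HOXA3 had 0.236 and 0.962 CPM, against 3.50 to 4.93 CPM. HOXB7 lay between 47.1 and 69.5 CPM in all 7. MALAT1 moved with this, at 988 and 2851 CPM in clusters 1 and 2 and 27678 to 66483 CPM in those 4, and its part in the difference was not tested. Without clusters 1 and 2, groups 5 to 13 gave 60.5% of day 0 HOX UMIs.

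Several HOX gene models lie inside others. In GENCODE 29, HOXA4, HOXA5 and HOXA6 lie whole inside HOXA3 on the same strand, and HOXB4 and HOXB5 inside HOXB3. HOXB8 and HOXB9 lie inside HOXB7, and HOXD4 inside HOXD3. Of HOXB4 exon bases 4.23% are also exon of the longer gene, and of the others 0%. A read in their exons can thus match the longer gene mainly where introns are counted, which was not stated. Other genes at 10 CPM or more at day 3 that lie inside a longer gene had a median log2 ratio of -2.22 at day 5 against day 3 (72 genes, 1 of them under 3 UMIs at day 5), and the 9655 not inside such a gene had -0.45. For day 5 against day 0 the medians were -1.85 over 39 nested genes and -0.38 over 8007 others. Of these, 5.13% and 0.425% were under 3 UMIs at day 5. HOXA7 and HOXB7 lie inside no gene of their strand and had 0 UMIs at day 5. HOXA6, inside HOXA3, and HOXB6, with 96.9% of its exon bases inside HOXB3, also had 0 UMIs there. HOXB4 lies inside HOXB3 and had 667. The part of nesting in the HOX result was not tested. HOXA-AS3, HOXB-AS3 and other antisense RNAs overlap HOX exons, and the use of strand in counting was not stated.

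Noncoding RNAs and neighbours of the clusters added to the picture. HOTAIRM1, the RNA from the front end of HOXA, had 17.3, 150 and 22.6 CPM at days 0, 3 and 5. HOXA-AS3, which overlaps HOXA5 to HOXA7 on the opposite strand, had 0.369, 5.34 and 0.0196 CPM. Of HOXA6 and HOXA7 exon bases, 39.3% and 62.5% are also exon of HOXA-AS3. HOXB-AS3 had 59.9, 8.87 and 24.4 CPM, and at day 5 HOXB5 and HOXB6, which it overlaps, had 1 and 0 UMIs. HAGLR, antisense to HOXD3 and HOXD1, had 4.79 CPM at day 5, against 1 UMI at day 3 and 1 at day 0. Of 16 listed noncoding RNAs in the tables, 3 were higher and 1 lower at day 5 than at day 0 among 6 at the limit. Among 17 flanking genes, 6 were higher and 2 lower of 15 at the limit, and with TMM scaling 4 and 7 of 14. All genes had 55.5% higher and 22.2% lower, and with TMM 41.3% and 36.2%. EVX1, a homeobox gene beyond the end of HOXA known from spinal interneurons, had 1.14 CPM at day 5 against 0 and 1 UMIs at days 3 and 0.

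TALE proteins include the PBX, MEIS and PKNOX cofactors that bind DNA with HOX proteins. Of 10 listed genes, 6 were higher and 2 lower at day 5 than at day 0, near the 55.5% and 22.2% of all genes. Their median log2 ratio was 4.20, against 1.47 over all genes. With TMM scaling 6 were again higher and 2 lower, while all genes had 41.3% and 36.2%. At day 5 against day 3, 6 of 10 were higher and 2 lower, beside 40.0% and 29.7% of all genes. MEIS2 had 27.2, 191 and 2269 CPM, PBX3 24.6, 32.3 and 621 CPM, and MEIS1 34.5, 137 and 458 CPM at days 0, 3 and 5. TGIF1, a TALE repressor, was lower at day 5, at 12.8 CPM, against 117 CPM at day 3 and 61.9 CPM at day 0. Day 3 differed less from day 0, with 4 of 10 higher and 0 lower (all genes: 46.3% and 16.2%) and a median log2 ratio of 0.95, against 0.83 over all genes.

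Retinoic acid induces the front HOX genes in hindbrain tissue, and CDX factors induce the trunk genes. Of 19 listed retinoid and CDX genes, 12 reached the limit, of which 8 were higher and 4 lower at day 5 than at day 0 (all genes: 55.5% and 22.2%). The receptor gene RARB, itself a retinoic acid target, had 0.0649, 3.26 and 218 CPM at days 0, 3 and 5, and CRABP1, a cytoplasmic retinoic acid binder, had 0, 3 and 6080 UMIs. RARG went the other way, at 0.0589 CPM at day 5 against 33.5 CPM at day 3 and 14.8 CPM at day 0. CDX1, CDX2 and CDX4 had at most 15 UMIs in any library.

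Polycomb proteins hold HOX genes silent and MLL and H3K27 demethylase proteins keep them on. Of 20 Polycomb genes, 9 were higher and 6 lower at day 5 than at day 0, and 4 higher and 7 lower than at day 3. All genes had 55.5% higher and 22.2% lower in the day 0 contrast and 40.0% and 29.7% in the day 3 contrast. EZH2, the H3K27 methyltransferase, had 21.9, 87.4 and 175 CPM and its partner JARID2 33.4, 68.3 and 249 CPM at days 0, 3 and 5. SUZ12 and PHC2 differed less, at 72.7, 122 and 118 CPM and at 69.5, 85.8 and 65.1 CPM. Among 10 MLL and demethylase genes, 5 were higher and 1 lower at day 5 than at day 0. With TMM scaling 1 of them was higher and 3 lower, and of the 20 Polycomb genes 4 and 9, while all genes had 41.3% higher and 36.2% lower. KDM6A and KDM6B, both H3K27 demethylases, moved apart, with 152 CPM at day 5 against 14.4 CPM at day 0 for KDM6A and 19.0 CPM against 83.5 CPM for KDM6B.

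Position genes outside the HOX clusters differed as well. Of 19 limb and body wall genes, 13 of the 15 at the limit were lower at day 5 than at day 3 (background 29.7%), with a median log2 ratio of -6.82 against 0.29 over all genes. PITX1, a hindlimb gene, had 174, 166 and 0.0589 CPM at days 0, 3 and 5, FOXF1 184, 149 and 0 CPM, TBX3 205, 345 and 0.0589 CPM, and TCF21 26.5, 303 and 0.0196 CPM. Of 16 hindbrain and spinal genes, 7 of the 8 at the limit were higher at day 5 than at day 0 (background 55.5%), among them PAX3, PAX2 and PAX7 of neural tube progenitors and interneurons, at 166, 67.7 and 50.2 CPM, and LHX1, an interneuron gene, at 31.4 CPM. Each of these 4 had at most 1 UMI at days 0 and 3. Of 16 rostral brain genes, 7 of the 8 at the limit were higher at day 5 than at day 0 (background 55.5%). Among them were PAX2, which is in both lists, and IRX2, an Iroquois homeobox gene at 0.487, 11.4 and 19.6 CPM at days 0, 3 and 5. At day 3 against day 0, 6 of 7 rostral genes were already higher and 1 lower (background 46.3% and 16.2%). At day 5 against day 3, 7 of 11 were higher and 3 lower (background 40.0% and 29.7%).

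**Figure D5:**
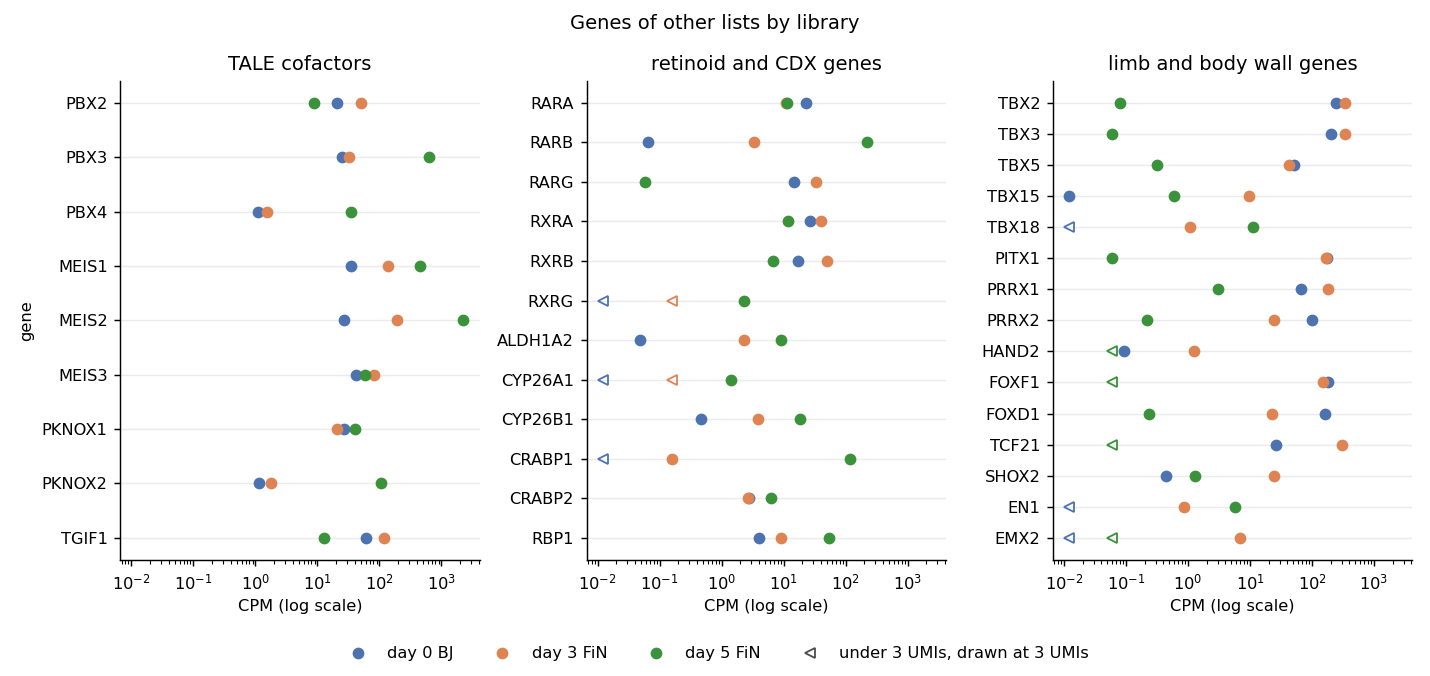
CPM on a log scale in each library (colour by day) for TALE cofactor, retinoid and CDX, and limb and body wall genes that reached 1 CPM in some library and are reported here, with open triangles under 3 UMIs. MEIS2 at 2269 CPM and RARB at 218 CPM at day 5 lie right of their other points, and FOXF1, PITX1 and TBX3 lie at or under 0.0589 CPM at day 5.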

How the data were processed

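The deposited files hold UMI counts per gene and cell barcode from 10x libraries, 1 library per day. The submitters' processing notes name Cell Ranger 4.0.0 and hg38, and the counting of introns and use of strand were not stated. Genes were joined by Ensembl ID. Cells needed 500 UMIs, 300 genes and at most 20% mitochondrial UMIs, and day 5, deposited with every barcode, was first cut at 2155 UMIs (the 99th percentile of its 10000 largest barcodes divided by 10), which called 9304 barcodes. No doublet caller was run. UMIs were summed per library and divided by the total over the shared genes. Clusters came from scanpy 1.11.5 (2000 variable genes, 30 components, 15 neighbours, Leiden resolution 0.5), and TMM factors from edgeR 4.0.16. The summing and calling were tested on simulated data. The HOX genes and the gene lists were chosen with earlier results of these data known. Of the other lists, genes at 10 CPM or more are named, at most 6 per list, and HOXA-AS3, HAGLR, EVX1, the CDX genes and the genes set beside day 3 cluster 3 were named after their values were seen. Some genes of the lists are not reported here. Alternatives changed the CPM limit, the scaling, the cell filters, the depth and the free RNA subtracted.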

Additional observations from a re-analysis of the deposited data

Results flagged for a closer look

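Day 5 barcodes of 500 to 1000 UMIs, 50562 in number and outside the comparisons above, carried 39.8 CPM of HOXB2 and 19.0 CPM of HOXA2. Both stand above the 11.5 and 6.77 CPM in the day 5 cells. In barcodes under 100 UMIs HOXB2 had 33.4 CPM and HOXA2 16.2 CPM. The part of these barcodes in the levels of the day 5 cells was not tested beyond the subtraction at 10% of UMIs, after which HOXA2 had 5.41 CPM in the cells.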

How the results depend on the processing

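No paired analysis was possible because each day has 1 library. The 3 libraries differ in preparation, depth and annotation, with day, and these cannot be told apart. The 40 gene and library pairs called higher or lower gave 345 log2 ratios under alternatives. Of these, 330 kept their direction and side of the rule, 14 kept only the direction and 1 reversed: HOXB4 at day 3 against day 0 was -0.062 with TMM. HOXB3, which was not called, also turned. Its log2 ratio went from 0.76 to -0.38 with TMM at day 5 against day 0. At day 3 against day 0 it went from 0.72 to -0.48 with TMM and to -0.088 with median of ratios. HOXA9 lost its calls with TMM, with strict filters and without day 3 cluster 3, where it was under 1 CPM. For day 3 against day 0, calls were also lost for HOXA4 and HOXA7 with TMM, HOXA5 with TMM, median of ratios and strict filters, HOXB4 with median of ratios and with totals without mitochondrial and ribosomal genes, and HOXB2 when thinned. At a limit of 10 CPM, 5 of 9 genes were lower at day 5 than at day 0 (all genes: 26.0%) and 7 of 12 higher at day 3 than at day 0 (37.6%). With no CPM limit, 6 of 24 were higher at day 5 than at day 0 (55.0%) and 2 of 25 higher than at day 3 (34.0%), and with every day 5 barcode of 1000 UMIs 2 were higher than at day 3. TMM gave 6 of 15 higher at day 3 than at day 0 (24.3%). The share of groups 5 to 13 at day 0 was 64.2% thinned to 1000 UMIs, 63.6% as a mean over cells, 72.4% per kilobase of exon and 60.5% without clusters 1 and 2. At day 3 it was 34.0% with strict filters, 45.8% as a mean over cells, 60.7% per kilobase and 35.5% without cluster 3, and at day 5 0.352% per kilobase. The share of groups 9 to 13 was 0.0192% at day 0 and 0% at day 5 when thinned, and at day 3 0.956% with strict filters, 2.21% as a mean over cells, 1.45% per kilobase and 0.700% without cluster 3. Cells with a HOX UMI came to 68.4%, 45.6% and 53.7% at days 0, 3 and 5 without thinning, and 94.99%, 66.1% and 54.8% with strict filters. The alternatives on groups 5 to 13 and those leaving out clusters were added after the data were seen. Except where a filter or limit removes cells or genes by construction, the cause was not tested. At day 3, 3 UMIs equal 0.160 CPM, so a gene with 0 UMIs there may lie anywhere under that level.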
